A study of Rattus norvegicus with 15 samples.

Results

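The genes described here are 10 that encode small leucine-rich and matricellular proteins of the extracellular matrix. They are DCN (decorin), LUM (lumican), BGN (biglycan), FMOD (fibromodulin), ASPN (asporin), OGN (osteoglycin), DPT (dermatopontin), POSTN (periostin), TNC (tenascin C) and SPARC (osteonectin). They were taken by symbol from a table of 17463 gene rows, and the set was proposed with earlier results of these data known. Of the 10, 8 passed the filter on low counts that left 11665 genes for testing, and ASPN and OGN did not.

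The study sequenced poly(A) RNA of mammary tumours that the carcinogen N-nitroso-N-methylurea (NMU) had induced in Fischer rats. The midkine group was given rat recombinant midkine, a heparin-binding growth factor, at 300 ug/kg. It was injected 3 times per week for 2 weeks, ahead of each of 2 intraperitoneal doses of NMU (50 mg/kg). The comparison group was labelled vehicle. There were 6 vehicle libraries and 9 midkine libraries, each from a small piece of a tumour, so the tissue around a tumour can contribute to a library. Rats still alive were killed once the final tumour of the midkine group had grown to the permitted size. The labels give no age or tumour stage, and libraries are named by the number in their title. Titles such as vehicle 2-1 and 2-2, or midkine 4-1, 4-2 and 4-3, have the first number in common, and the labels do not say whether such tumours grew in the same rat. The p-values below rest on the spread between libraries alone, part of which may be technical. The tissue label was checked with epithelial markers, and EPCAM was present in every library, at 369 to 1548 CPM (reads scaled to a common library size).

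Library totals ran from 4925504 to 8486523 reads, and 13056 to 13665 genes had a read in each library. A few libraries stood apart before any comparison. In midkine 5, 7.29% of all reads were from COL1A1, a chain of collagen I, against at most 0.563% in any other library. Midkine 1 was rich in skeletal muscle transcripts, with MYH4, a myosin heavy chain, at 55763 CPM before scaling. MYH4 had at most 1 read in midkine 3-1, 3-2, 4-1, 4-2 and 4-3 but 461 or more reads in each of the other 10 libraries. No label explains that split, and since all 5 of these libraries are midkine libraries, it is given here as a possible technical difference that cannot be told apart from treatment within them. Results are given with and without these libraries.

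Small leucine-rich proteoglycans have a protein core of leucine-rich repeats that binds collagen fibrils, and most of them carry glycosaminoglycan chains. They regulate the width and spacing of fibrils and hold growth factors such as TGF-beta in the matrix. Matricellular proteins are secreted into the matrix but act mainly on cell adhesion, migration and signalling rather than as structural fibres. In mammary tumours both classes are made mostly by fibroblasts of the stroma, and periostin and tenascin C are well known markers of remodelling stroma.

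The upstream sequences of 4 of the genes are shown because these gave the highest and the lowest rank correlation of any pair over the 15 libraries. LUM and POSTN had the highest, only just above DCN and LUM, and DPT and FMOD had the lowest. Each is the 250 bases before the annotated start in RefSeq (build GRCr8), 5′ to 3′ on the gene's strand, which is the plus strand for all 4. Capitals mark a TATA box match. DPT lies at chr13:79656091-79656340, FMOD at chr13:48045317-48045566, LUM at chr7:34245456-34245705 and POSTN at chr2:140677811-140678060.
DPT: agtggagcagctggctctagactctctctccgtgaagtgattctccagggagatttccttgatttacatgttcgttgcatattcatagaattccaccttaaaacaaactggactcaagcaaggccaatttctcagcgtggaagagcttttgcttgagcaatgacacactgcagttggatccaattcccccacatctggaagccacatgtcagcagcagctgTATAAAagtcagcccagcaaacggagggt
POSTN: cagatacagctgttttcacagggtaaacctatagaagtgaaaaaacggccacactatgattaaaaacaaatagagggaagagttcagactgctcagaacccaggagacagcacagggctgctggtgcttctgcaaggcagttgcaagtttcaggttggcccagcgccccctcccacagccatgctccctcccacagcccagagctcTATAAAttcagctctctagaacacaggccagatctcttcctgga
LUM: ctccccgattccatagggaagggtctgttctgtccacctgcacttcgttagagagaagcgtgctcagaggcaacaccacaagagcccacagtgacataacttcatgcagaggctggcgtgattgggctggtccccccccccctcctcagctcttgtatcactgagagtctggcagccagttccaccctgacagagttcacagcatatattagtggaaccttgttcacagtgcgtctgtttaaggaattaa
FMOD: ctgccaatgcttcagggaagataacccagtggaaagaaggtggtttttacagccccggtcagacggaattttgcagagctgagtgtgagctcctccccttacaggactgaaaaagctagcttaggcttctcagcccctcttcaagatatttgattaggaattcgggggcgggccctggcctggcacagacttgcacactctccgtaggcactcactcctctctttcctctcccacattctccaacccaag
The windows of 8 of the 10 genes were found in that table. They were searched on both strands for 4 motifs. For the TATA box the letters were TATAAA. For AP-1 they were TGANTCA. For TEAD factors they were CATTCC, and for SMAD factors they were CAGACA. In DPT, TATAAA was 29 bases before the start, and in POSTN it was 44 bases before it. LUM and FMOD held none of the 4 motifs in this window. TATAAA was also found in TNC, 208 bases before the start, and in OGN on both strands, in 2 overlapping matches. CATTCC was found in SPARC and OGN, and CAGACA in SPARC and TNC. Of 33469 promoter windows of the same length, 12.9% held TATAAA, 6.34% TGANTCA, 12.1% CATTCC and 17.2% CAGACA. These matches describe letters only and show no binding.

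In midkine tumours the estimates for 8 of the 8 tested genes lay above vehicle, and the largest was that of DPT, at 6.17-fold. DCN, LUM, BGN, POSTN and SPARC had estimates of 2.13-fold to 3.14-fold, while FMOD (1.02-fold) and TNC (1.25-fold) were close to vehicle. No gene of the 8 passed the test after adjustment over all genes (edgeR quasi-likelihood test, Benjamini-Hochberg threshold 0.05), and no gene among the 11665 did (0%). At an unadjusted p under 0.05, 2 of the 8 passed, BGN and DPT, both higher in midkine, against 7.96% of all tested genes in that direction. Of all tested genes, 55.7% had an estimate above vehicle. The median log2 fold change was 1.41 over the 8 genes and 0.04 over all tested genes. No gene of the 8 separated the groups without overlap, and 0.0171% of tested genes did. In bulk tissue, a higher level can mean more cells of a type or more RNA per cell, and a lower level the reverse. These cannot be told apart. Counts were not divided by transcript length, so levels are compared between libraries and not between genes.

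**Figure D1:**
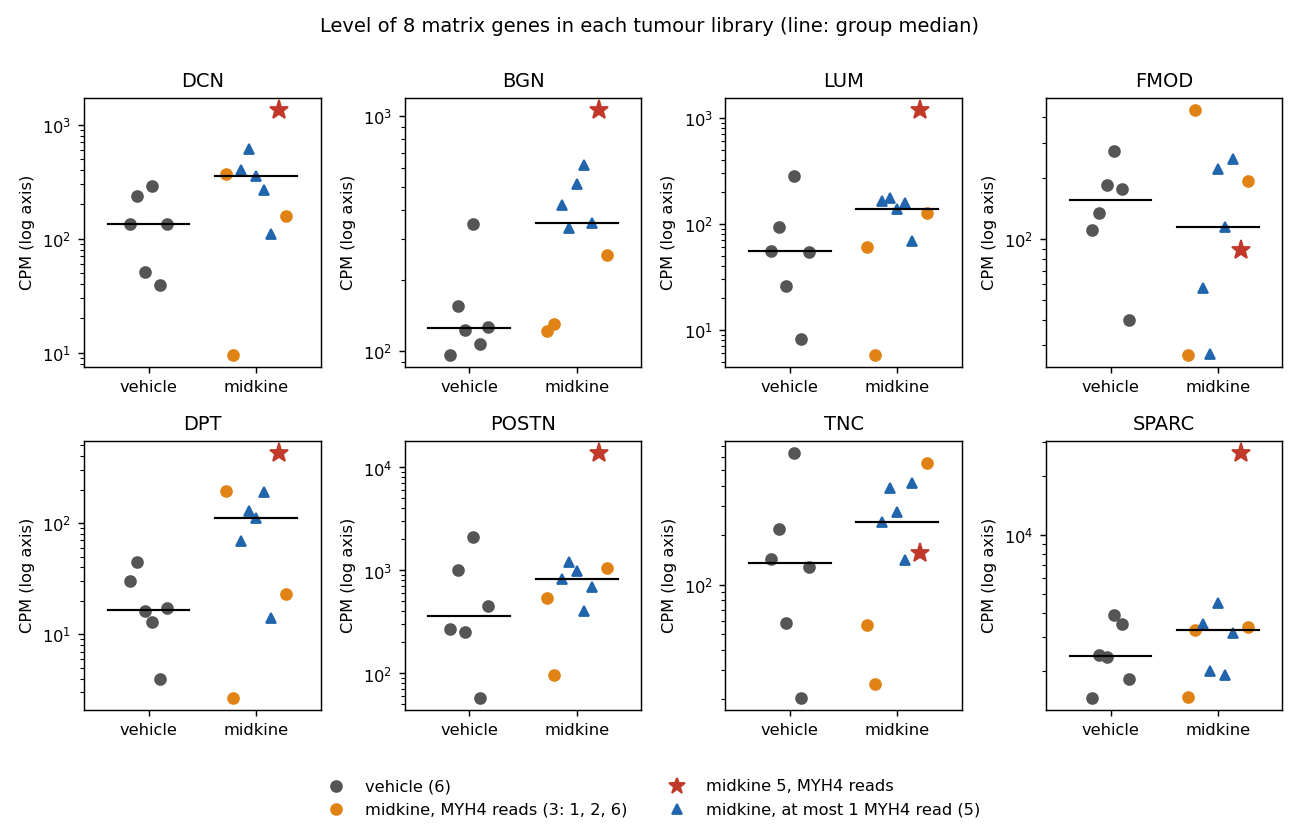
Level of the 8 tested genes in each library, in CPM on a log axis, with vehicle (6) and midkine (9) libraries side by side and a line at each group's median. Midkine 5 (star) is the highest library for DCN, BGN, LUM, DPT, POSTN and SPARC, and the groups overlap for all 8 genes.

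Decorin and biglycan are the dermatan or chondroitin sulphate proteoglycans of the group, and both bind collagen and TGF-beta. DCN was 39.1, 133 and 291 CPM at the lowest, median and highest vehicle library, and 9.54, 355 and 1344 CPM in midkine. Midkine libraries gave both the lowest value (midkine 2) and the highest (midkine 5), and 5 of 9 lay above every vehicle library. Group means were 147 ± 99.7 CPM (SD, n = 6) and 403 ± 396 CPM (SD, n = 9). The log2 fold change of DCN was 1.45 (SE 0.73), with an edgeR adjusted p of 0.527.

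BGN was 96.5, 125 and 347 CPM at the lowest, median and highest vehicle library, and 121, 350.3 and 1064 CPM in midkine. Vehicle 4 stood above the other vehicle libraries, the next of which was at 156 CPM. Midkine 1 (121 CPM) and midkine 2 (130.5 CPM) lay among the vehicle libraries, and 5 of 9 midkine libraries lay above vehicle 4. BGN varied least of the proteoglycans, by 6.41-fold between the lowest and the highest library other than midkine 5, against 16.2-fold for FMOD, 48.8-fold for LUM and 64.4-fold for DCN. Its log2 fold change was 1.41 (SE 0.46), with an edgeR p of 0.0073 and an adjusted p of 0.399.

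Lumican and fibromodulin are keratan sulphate proteoglycans that bind the same region of collagen I fibrils. LUM was 8.13, 55.2 and 284 CPM at the lowest, median and highest vehicle library, and 5.81, 137 and 1187 CPM in midkine. Midkine 5 was the only midkine library above vehicle 4, but 8 of 9 midkine libraries were above the vehicle median. The log2 fold change of LUM was 1.41 (SE 0.90), with an edgeR adjusted p of 0.639. It was 0.37 (SE 0.69) without midkine 5, so that 1 library carried most of the estimate.

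FMOD was 39.8, 156 and 273 CPM at the lowest, median and highest vehicle library, and 26.9, 115 and 435 CPM in midkine. Its order of libraries differed from that of DCN, LUM and DPT in particular. Midkine 2, which was lowest of all for DCN, LUM and DPT, was highest for FMOD, and midkine 5 had only 88.2 CPM. FMOD was lowest in midkine 1 (26.9 CPM) and midkine 3-2 (27.2 CPM), both below every vehicle library. The log2 fold change was 0.04 (SE 0.56), an estimate whose sign turned with several settings, including without midkine 2 (-0.32).

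Asporin and osteoglycin, leucine-rich proteins encoded in the same gene cluster as osteomodulin, had almost no reads. ASPN had 3 reads in all 15 libraries together, 1 each in vehicle 4, midkine 4-3 and midkine 5. OGN had 1 read, in vehicle 5. Their cluster relative OMD (osteomodulin) had 0 reads, and KERA (keratocan), a neighbour of LUM and DCN, had 1. EPYC (epiphycan) had 4 reads, all in midkine 5. Such a row is not evidence that a gene is silent in this table. COL1A2, the partner chain of COL1A1, had 28 reads over all libraries and 19 in midkine 5, a library with 461048 reads of COL1A1. Of all rows, 3113 (17.8%) held at most 3 reads in total, and the cause was not tested. No fold change is given for ASPN or OGN.

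Dermatopontin, a small tyrosine-rich protein that binds decorin and collagen, showed the largest estimate. DPT was 3.96, 16.7 and 44.9 CPM at the lowest, median and highest vehicle library, and 2.68, 112 and 429 CPM in midkine. The midkine libraries took 2 ranges: midkine 1, 3-1, 3-2, 4-1, 4-2 and 5 lay between 69.2 and 429 CPM, above every vehicle library, while midkine 2, 4-3 and 6 lay between 2.68 and 22.8 CPM. Group means were 20.9 ± 14.4 CPM (SD, n = 6) and 129 ± 133 CPM (SD, n = 9). DPT had a log2 fold change of 2.63 (SE 0.85), with an edgeR p of 0.0072 and an adjusted p of 0.399.

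Other tools differed on DPT. With limma-voom its log2 fold change was 1.76 (SE 1.10), with an adjusted p of 0.868, and BGN (1.26, SE 0.43) was the only gene of the 8 at an unadjusted p under 0.05. DESeq2 gave DPT a log2 fold change of 2.66 and an adjusted p of 0.0473, with 92 of 13897 genes called (0.662%). DESeq2's adjusted p for BGN was 0.0867. By default DESeq2 replaces outlying counts, and it replaced that of midkine 5 for LUM, POSTN and SPARC. With outlying counts kept, an alternative added after seeing the data, DESeq2 called 466 of 13054 genes. Among these were DPT (DESeq2 adjusted p 0.0173) and BGN (DESeq2 adjusted p 0.0414).

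Periostin, a secreted protein that binds integrins and promotes collagen cross-linking, had the widest range of the matricellular genes. POSTN was 58.1, 362 and 2128 CPM at the lowest, median and highest vehicle library, and 96.3, 835 and 13863 CPM in midkine. Midkine 5 alone exceeded vehicle 4, and the next midkine library was at 1198 CPM. In midkine 5, POSTN took 1.23% of all reads. Its log2 fold change was 1.65 (SE 1.00; edgeR adjusted p 0.610) with midkine 5 and 0.07 (SE 0.65) without it.

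Tenascin C, a large hexameric glycoprotein that loosens cell adhesion, had its highest value in a vehicle library. TNC was 20.4, 135 and 635 CPM at the lowest, median and highest vehicle library, and 24.9, 240.2 and 548 CPM in midkine. No midkine library exceeded vehicle 4, although 7 of 9 exceeded the vehicle median. Unlike POSTN and SPARC, TNC was not high in midkine 5 (156 CPM). The log2 fold change was 0.32 (SE 0.68), with an edgeR adjusted p of 0.916, and its sign turned in the 10 libraries with MYH4 reads (-0.02).

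Osteonectin, a collagen-binding glycoprotein that many tissues make, varied least of all the 8 genes outside midkine 5. SPARC was 1465, 2391 and 3901 CPM at the lowest, median and highest vehicle library, and 1473, 3247 and 26295 CPM in midkine. Without midkine 5 the lowest and highest libraries differed by 3.04-fold. In midkine 5, SPARC took 2.34% of all reads, and the next midkine library (midkine 4-1) was at 4460 CPM. With midkine 5 the log2 fold change was 1.09 (SE 0.60; edgeR adjusted p 0.568), and without it 0.17 (SE 0.28).

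**Figure D2:**
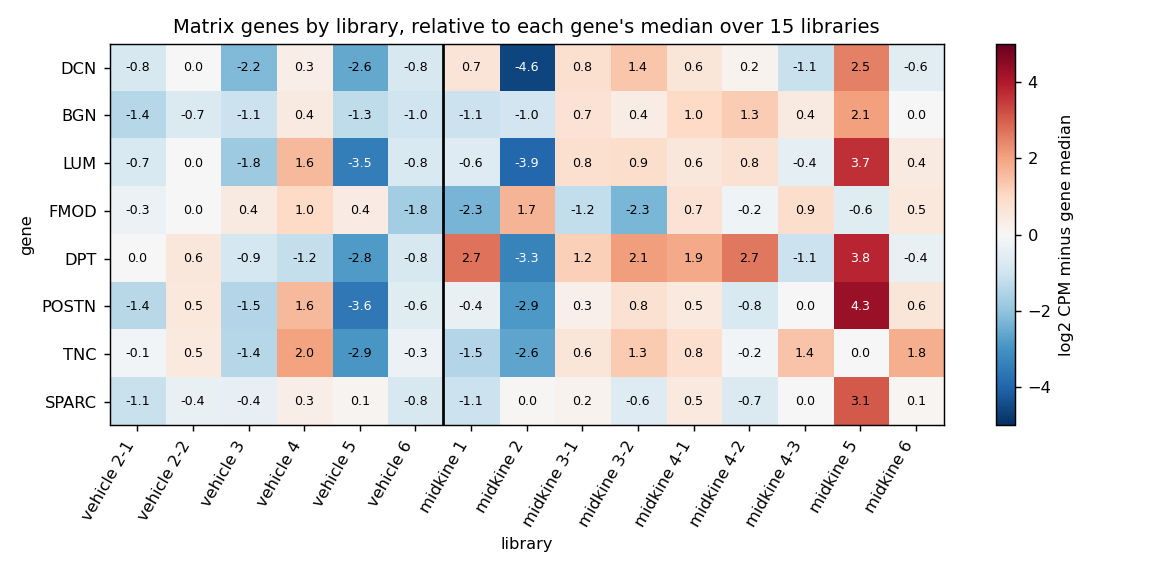
Log2 CPM of each tested gene in each library minus that gene's median over the 15 libraries, with vehicle libraries left of the black line and midkine libraries right of it. Midkine 5 stands out for all genes but FMOD and TNC, midkine 2 and vehicle 5 are low for DCN, LUM, DPT, POSTN and TNC, and FMOD is high in midkine 2 and low in midkine 1 and midkine 3-2.

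Together the 10 genes took 0.261% to 0.846% of the reads of vehicle libraries (median 0.357%) and 0.157% to 3.95% of those of midkine libraries (median 0.525%). Midkine 5 was the library at 3.95%, and the highest of the other midkine libraries was at 0.760%. Leaving out midkine 5 lowered the median log2 fold change of the 8 genes from 1.41 to 0.38. BGN (1.11, SE 0.40) and DPT (2.14, SE 0.78) still had an unadjusted edgeR p under 0.05, at 0.0139 and 0.0154, against 7.50% of all tested genes in that direction. Their adjusted p was 0.417 for both. Leaving out midkine 1 as well, a choice made after seeing the data, kept the same 2 genes under that threshold.

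The comparison among the 10 libraries with MYH4 reads, 6 vehicle and 4 midkine, gave a different set. DPT (2.97, SE 1.02) and SPARC (1.76, SE 0.70) had an unadjusted edgeR p under 0.05, at 0.0144 and 0.0295, against 7.51% of tested genes. BGN was at 1.32 (SE 0.62) there. When midkine 5 was also left out, which keeps 3 midkine libraries, none of the 8 genes had an unadjusted p under 0.05 and the median log2 fold change was 0.08. DPT remained the gene with the largest estimate (1.81, SE 0.97), BGN was at 0.09 (SE 0.43), and LUM (-0.44) and POSTN (-0.30) lay below vehicle. Vehicle 4 acted in the other direction: without it, 5 of the 8 genes (DCN, LUM, BGN, DPT and POSTN) had an unadjusted edgeR p under 0.05, against 7.55% of tested genes, and none passed adjustment.

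**Figure D3:**
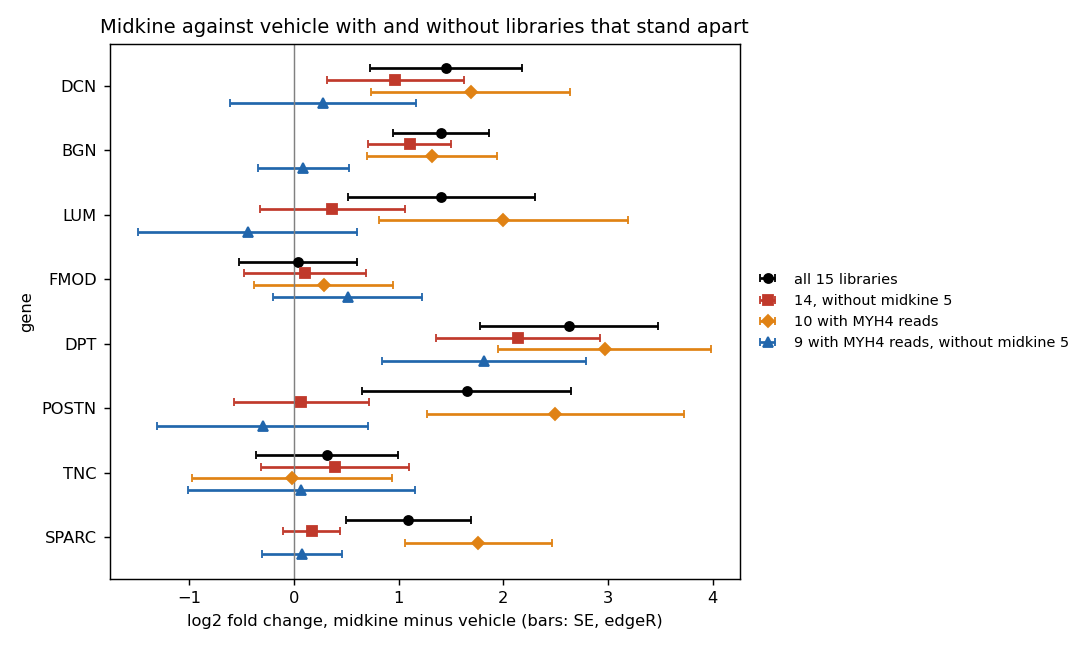
Log2 fold change of midkine over vehicle for each tested gene (points) with its standard error (bars) from edgeR, in all 15 libraries, without midkine 5, in the 10 libraries with MYH4 reads and in 9 of these without midkine 5. The estimates of LUM, POSTN and SPARC lie near or below 0 in both sets without midkine 5, and DPT is at 1.81 or more in all 4.

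Collagen I is the fibril that most of these proteins bind, so their reads were also expressed per 100 reads of COL1A1 in the same library. COL1A1 itself ran from 128 to 82114 CPM, a 643-fold range. POSTN kept the narrowest ratio of the 8 genes, from 16.9 reads in midkine 5 to 75.5 in midkine 2 (median 35.9), a 4.47-fold range. For comparison COL3A1, the collagen III chain that assembles with collagen I, had a 3.31-fold range. LUM followed with a 7.44-fold range (1.45 to 10.8 reads, median 5.16) and DCN with a 19.5-fold range (1.64 to 32.0 reads, median 12.5).

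The other genes did not keep a ratio to COL1A1 over all 15 libraries. For TNC this rested on midkine 5, with 0.190 reads per 100, against 4.90 to 19.5 in the other libraries. Outside midkine 5, LUM spanned 2.57 to 10.8 reads and DCN 4.10 to 32.0. SPARC ranged from 32.0 reads in midkine 5 to 2544 in midkine 2, and BGN from 1.30 to 102 in the same 2 libraries. FMOD ranged from 0.107 to 341 reads, a 3174-fold range. In midkine 5, the ratio was the lowest of all 15 libraries for 7 of the 8 genes, and for DPT the lowest was vehicle 4 (0.248 reads). The ratio has COL1A1 as its denominator, so a library with high COL1A1 is low in it by construction unless a gene keeps pace.

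**Figure D4:**
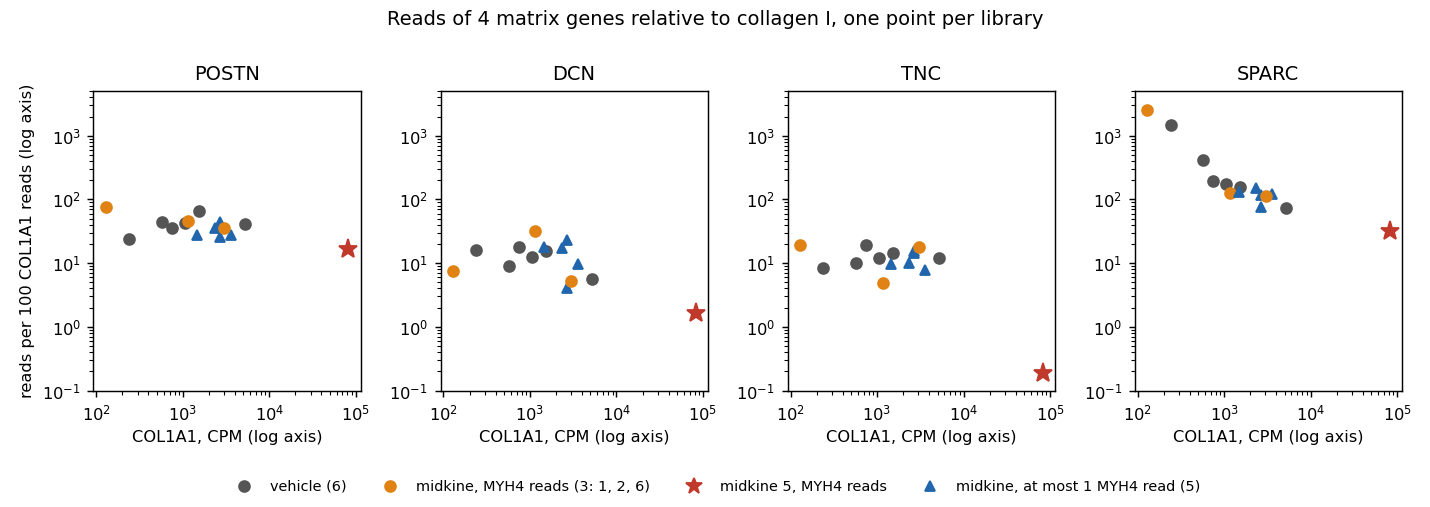
Reads of POSTN, DCN, TNC and SPARC per 100 COL1A1 reads (log axis) against COL1A1 level in CPM (log axis), 1 point per library. POSTN stays between 16.9 and 75.5 over the whole range of COL1A1, while SPARC spans 32.0 to 2544 and TNC is at 0.190 in midkine 5.

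Likeness of the genes across the 15 libraries was described by Spearman's rho of log2 CPM, with no p-value, since libraries share treatment groups and possibly animals. Of 28 pairs, 23 had a rho above 0 and 12 above 0.5. LUM and POSTN (0.87), DCN and LUM (0.87), DCN and DPT (0.84) and POSTN and TNC (0.80) were the closest pairs. The rho of LUM and POSTN was 0.84 without midkine 5 and 0.98 in the 10 libraries with MYH4 reads. Without midkine 5, POSTN and TNC were the closest pair, at 0.87. Of the 5 pairs below 0, 4 involved FMOD, and the lowest was FMOD and DPT at -0.69. FMOD was above 0 with BGN (0.12), TNC (0.22) and SPARC (0.47), and with SPARC it reached 0.64 without midkine 5 and 0.77 within vehicle. No pair changed sign without midkine 5 or in the 10 libraries. Within the 6 vehicle libraries, FMOD and DPT were at -0.60, but FMOD and DCN, at -0.54 over all libraries, were at 0.14.

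**Figure D5:**
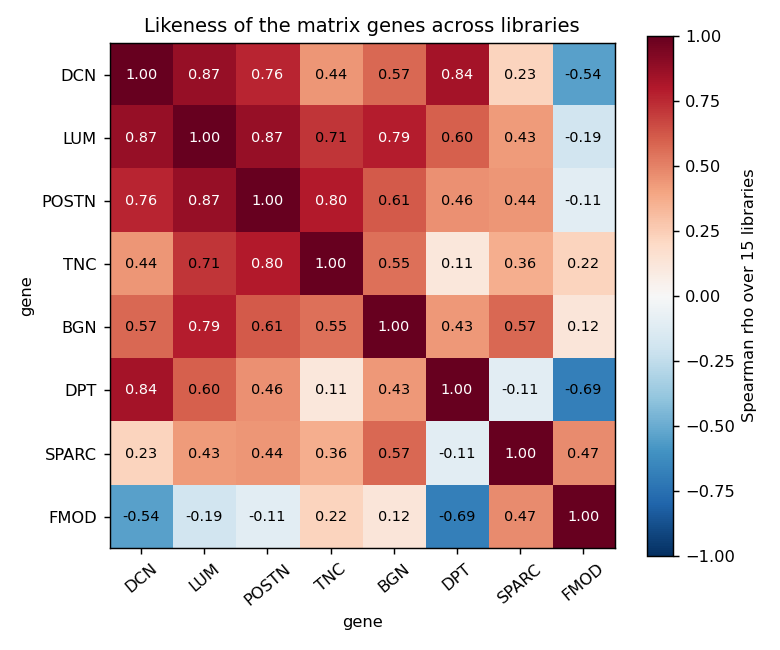
Spearman's rho between the log2 CPM of each pair of tested genes over the 15 libraries, from -1 (blue) to 1 (red). DCN, LUM and POSTN form the block of highest values (0.76 to 0.87), and FMOD is at -0.69 with DPT and -0.54 with DCN.

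The reads of DCN and LUM also kept the narrowest ratio of any pair, from 1.03 DCN reads per LUM read in vehicle 4 to 6.16 in midkine 1, a 6.0-fold range. The widest was that of FMOD to DPT, a 1179-fold range.

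For each gene the 3 other genes of highest rho over the 15 libraries were taken from all tested genes, so their values are high by selection. LUM was closest to EMP1 (0.96), a membrane protein, to CTSK (0.95), the collagen-degrading cathepsin K, and to COL3A1 (0.95). DCN was closest to PMP22 (0.96), SH3KBP1 (0.92) and CLMP (0.92). DPT was closest to HTRA3 (0.94), a secreted serine protease, to NTRK2 (0.94), a neurotrophin receptor, and to CILP (0.92), a matrix protein of cartilage and fibrous tissue. POSTN was closest to DNM1 (0.93), the matricellular gene SMOC2 (0.93) and the metalloprotease gene ADAM33 (0.93). BGN was closest to C1R (0.95), a protease of the complement cascade, CD48 (0.90), a leukocyte surface protein, and MMP23 (0.90). TNC was closest to TIMP1 (0.88), an inhibitor of matrix metalloproteases, CADM4 (0.84) and SORCS2 (0.84). SPARC was closest to CCDC102A (0.93), EDNRA (0.91), an endothelin receptor, and GPX7 (0.91). FMOD was closest to SMC3 (0.92), a cohesin subunit, ABHD12 (0.91) and PRKAR2B (0.91), and none of these is a matrix gene.

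Fibroblast markers moved with most of these genes. Of 8 fibroblast markers, 7 were in the table and none was near 0 in all libraries. Their summed level was 162 to 586 CPM in vehicle (median 207) and 123 to 2167 CPM in midkine (median 509), with midkine 5 highest and the next library at 683 CPM. All 7 had estimates above vehicle, 4 at an unadjusted edgeR p under 0.05 and none after adjustment, with a median log2 fold change of 1.38. Spearman's correlation with this sum was 0.94 for LUM, 0.85 for DCN, 0.82 for BGN, 0.81 for POSTN, 0.69 for DPT, 0.65 for TNC, 0.44 for SPARC and -0.18 for FMOD. The part of fibroblast content in the differences above was not tested.

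A sum of adipocyte markers moved with DPT and DCN. All 7 markers were in the table. Their sum was 45.0 to 126 CPM in vehicle and 44.0 to 793 CPM in midkine, highest in midkine 1 and midkine 5 (577 CPM), which were also the libraries highest for DPT. The makeup of that sum differed between them. In midkine 5 it was mainly FABP4 (343 CPM) and LPL (218 CPM), which other cells also express, while ADIPOQ, PLIN1 and LEP, more specific to fat cells, had no read. In midkine 1, ADIPOQ was at 176 CPM, against at most 10.2 CPM in any other library. FABP4 and LPL were the largest terms of the sum in every library, so correlations with it describe mainly FABP4 and LPL. Spearman's correlation with this sum was 0.87 for DPT, 0.86 for DCN and -0.60 for FMOD. Myoepithelial markers ran the other way, with a rho of 0.73 for FMOD and -0.78 for DPT. The endothelial sum had a rho of 0.84 with LUM and 0.81 with BGN, and the macrophage sum 0.78 with BGN. Skeletal muscle markers were highest in midkine 1, at 352171 CPM summed, against at most 3677 CPM elsewhere. The part of these tissues in the results was not tested.

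The wider matrix and signalling genes were described by lists chosen with earlier results of these data known. In none of the 6 lists did a gene pass adjustment, and in none was a gene lower at an unadjusted edgeR p under 0.05. The counts below stand beside 55.7% of all tested genes with estimates above vehicle and 7.96% higher at an unadjusted p under 0.05. Among 18 tested genes for collagens and fibril assembly, 17 had estimates above vehicle, 9 of them at an unadjusted p under 0.05, with a median log2 fold change of 1.33. The 3 of smallest p were the procollagen processing enhancers PCOLCE2 (1.89, SE 0.58) and PCOLCE (1.42, SE 0.54) and the collagen cross-linking oxidase LOXL2 (1.31, SE 0.48). COL1A1 itself was at 2.82 (SE 1.24), and at 0.45 (SE 0.67) without midkine 5. These 3 depended less on that library, at 1.99 for PCOLCE2, 1.03 for PCOLCE and 1.08 for LOXL2 without it.

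Of 20 other matricellular genes, 16 had estimates above vehicle, 8 at an unadjusted edgeR p under 0.05, with a median log2 fold change of 0.87. TGFBI, a TGF-beta-induced adhesion protein related to periostin, had the smallest p of any gene in the 6 lists. Its mean was 32.8 ± 12.5 CPM (SD, n = 6) for vehicle libraries and 82.4 ± 48.2 CPM (SD, n = 9) for midkine libraries. Its log2 fold change was 1.33 (SE 0.35; edgeR adjusted p 0.399), 1.24 without midkine 5 and 0.78 (SE 0.35) in the 9 libraries with MYH4 reads other than midkine 5. CCN3 (2.48, SE 0.77) and CCN5 (2.56, SE 0.88), of the CCN family of connective tissue regulators, were at 0.77 and 0.46 in those 9 libraries.

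Of 13 proteases that cut these proteoglycans or their collagen partners, 11 had estimates above vehicle and 3 an unadjusted edgeR p under 0.05, with a median log2 fold change of 1.21. MMP13, a collagenase, averaged 9.13 ± 4.29 CPM (SD, n = 6) over vehicle libraries and 124 ± 264 CPM (SD, n = 9) over midkine libraries, highest in midkine 3-2. Its log2 fold change of 3.77 (SE 1.21) was 2.03 without midkine 3-2 and 0.19 in the 10 libraries with MYH4 reads. ADAMTS5, an aggrecanase, was at 1.46 (SE 0.48), 1.01 without midkine 5 and 1.89 in those 10 libraries. HTRA1, a secreted serine protease, was at 0.83 (SE 0.38), and at 0.41 without midkine 5.

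Of 22 genes for glycosaminoglycan chain synthesis, 16 had estimates above vehicle, 3 at an unadjusted edgeR p under 0.05, with a median log2 fold change of 0.22. These were DSE (1.62, SE 0.53), the epimerase that turns chondroitin into dermatan sulphate, XYLT1 (1.67, SE 0.72), which starts the chain, and CSGALNACT2 (0.72, SE 0.33), which starts its chondroitin part. XYLT1 was at 0.76 without midkine 3-2 and at 0.36 in the 10 libraries with MYH4 reads, where CSGALNACT2 was at 1.04. Of 19 receptors and signalling partners, 13 had estimates above vehicle and 1, TGFB1 (0.67, SE 0.31), an unadjusted p under 0.05, with a median of 0.28. TGFBR2 was at 0.95 (SE 0.46) and TGFB3 at -0.73 (SE 0.37). In the 10 libraries with MYH4 reads these were at 0.08 for TGFB1, 0.40 for TGFBR2 and -0.52 for TGFB3. Of the other small leucine-rich proteoglycans, 8 of 11 were in the table and 3 were tested. TSKU (0.22, SE 0.26), PRELP (-0.18, SE 0.35) and OPTC (0.02, SE 0.48) were all within 1 SE of 0.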

How the data were processed

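Libraries of poly(A) RNA were read as pairs of 150 bp (Illumina HiSeq), per the labels' protocols. What the authors deposited is a single file of raw read counts, whole numbers for each gene symbol in 15 libraries, not normalized. Build rn6 is named in the submitters' processing notes. The deposited counts are titled STAR gene counts, after the aligner STAR. The strand setting and gene models were not given in the sources used here. Reads of overlapping or near-identical genes may therefore be shared in ways the counts do not show.

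The test was the quasi-likelihood F test of edgeR 4.0.16 (R 4.3.3) on all 15 libraries, with 11665 genes left by its expression filter, trimmed mean of M-values (TMM) factors, and Benjamini-Hochberg adjustment over all tested genes at a threshold of 0.05. A standard error is the log2 fold change over the root of F. Levels in CPM use TMM-scaled totals, and log2 CPM used a prior count of 2. The test was tried on simulated data. Alternatives were DESeq2 1.42.0, limma-voom (limma 3.58.1), other scalings, no low-count filter, sums or blocks per title number, and leaving out libraries. Promoter windows are RefSeq's, of build GRCr8, and were not joined to coordinates of the counted build. All 51 pairs of libraries within a group differed beyond sampling noise (chi-square over its degrees of freedom, lowest 19.9). Library totals of 4925504 to 8486523 reads limit the precision of low genes.

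The 10 genes and all lists were chosen with earlier results of these data known. Genes named besides them were up to 3 per pathway list with the smallest edgeR p, the 3 of highest Spearman's rho per gene, and COL1A1 and MYH4. Other genes are named as list members, cluster neighbours or markers, and some of these were picked after their values were seen. ECM2, PODN and PODNL1 were not used here.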

Additional observations from a re-analysis of the deposited data

Results flagged for a closer look

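Of the 16 sets of values formed by 8 genes in 2 groups, 8 held a library far from the others of its group by Dixon's test. Its chance rate of about 1 in 20 assumes normally distributed values, and CPM values are skewed. The sets also share libraries, so the 8 are not independent of each other. Only midkine 5 and vehicle 4 were concerned. Midkine 5 stood apart for DCN (1344 CPM, next 615), LUM (1187 CPM, next 174), DPT (429 CPM, next 196), POSTN (13863 CPM, next 1198) and SPARC (26295 CPM, next 4460). Vehicle 4 stood apart for LUM (284 CPM, next 93.3), BGN (347 CPM, next 156) and TNC (635 CPM, next 219). Both libraries were also the highest of their group for COL1A1, at 82114 CPM in midkine 5 and 5238 CPM in vehicle 4. Neither stood apart for FMOD by that test. Midkine 5 was at 88.2 CPM, while vehicle 4 was the highest of its group at 273 CPM (next 184 CPM).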

How the results depend on the processing

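Of 28 alternatives, 15 left out 1 library, and the direction of DCN, BGN, DPT and SPARC was the same in all 28. In the 10 libraries with MYH4 reads without midkine 5, estimates fell to 0.28 for DCN, 0.090 for BGN and 0.075 for SPARC. The lowest estimate of DPT was 1.76, with limma-voom. With edgeR or limma-voom 0 genes were called in every alternative, while edgeR gave 1178 genes at an unadjusted p under 0.05. DESeq2 called 92 of 13897 genes (0.662%) and 1 of the 8 genes, DPT (log2 fold change 2.66). With outlying counts kept, chosen after seeing the data, it called 466 of 13054 genes, of which 2 were among the 8, DPT (2.66) and BGN (1.42). FMOD changed sign with limma-voom (-0.27) and with library totals alone (-0.024). TNC changed sign in the 10 libraries with MYH4 reads (-0.021) and with a term for MYH4 reads (-0.027). OPTC changed sign with library totals alone (-0.052), with counts summed per title number (-0.010), in the 10 libraries (-0.0081) and with the MYH4 term (-0.020), and PRELP in the 10 libraries (0.0032). In those libraries without midkine 5, also chosen after seeing the data, LUM (-0.44), POSTN (-0.30), TGFBR2 (-0.074), COL1A1 (-0.12) and PRELP (0.044) changed sign, and the 8 genes' median moved to 0.083; that set has 3 midkine libraries, and the cause was not tested. With 1 library left out, log2 fold changes ran from -0.32 to 0.28 for FMOD, -0.21 to 0.19 for OPTC, 0.97 to 1.77 for DCN, 0.37 to 2.28 for LUM, 1.11 to 1.79 for BGN, 2.14 to 3.00 for DPT, 0.07 to 2.42 for POSTN, 0.08 to 1.14 for TNC and 0.17 to 1.25 for SPARC, and the 8 genes' median from 0.38 to 1.78. Title numbers did not show as pairs between the groups. Vehicle and midkine libraries of the same number correlated at -0.26 to 0.06 after removal of group means. Of 5 numbers, 0 correlated best with themselves. This does not show whether libraries that share a number within a group came from the same rat. With the title number as a replicate block, 0 genes were called, the 8 genes' median was 0.55, FMOD was at -0.034, and only BGN (1.15) had an unadjusted p under 0.05. Library totals alone moved the median log2 fold change of all genes to -0.10. ASPN and OGN, with totals of 3 and 1 reads, allow no comparison, and the cause of their low counts was not tested. With limma-voom DPT was at 1.76 with an unadjusted p of 0.129, and BGN alone of the 8 genes had one under 0.05.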

Other observations

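FMOD, which ran opposite to DPT and DCN, followed a sum of cartilage markers, led by COL2A1 in most libraries, and a sum of bone markers that was mostly ALPL. Of 6 cartilage markers 4 were in the table, and COL2A1, the chain of cartilage collagen II, was the largest term of their sum in each library but midkine 1, where SOX9 (123 CPM) exceeded it (93.8 CPM). COL2A1 was 197 to 1660.1 CPM in vehicle and 93.8 to 1887 CPM in midkine, with the highest value in midkine 2, the library highest for FMOD, and the lowest in midkine 1, the library lowest for FMOD. SOX9, a regulator of COL2A1, was between 64.9 and 253 CPM in all libraries. It was highest in vehicle 5 and at 153 CPM in midkine 2. COL9A1 was at most 16.1 CPM and MATN3 at most 6.45 CPM. Over the 15 libraries Spearman's rho of FMOD with the summed cartilage markers was 0.82, and 0.87 in the 10 libraries with MYH4 reads. With the summed bone markers it was 0.79, and 0.92 in the 10 libraries. ALPL, an alkaline phosphatase that other tissues also make, was the most abundant of these (33.2 to 849.6 CPM). RUNX2, the next, was lowest in vehicle 3 (5.21 CPM) and then in midkine 2 (8.95 CPM), and highest in midkine 5 (39.5 CPM). In midkine 1, the library lowest for FMOD, RUNX2 was also low, at 10.5 CPM. SP7, a defining bone factor, had at most 2 reads in a library. For the summed myoepithelial markers the rho with FMOD was 0.73, and 0.76 in the 10 libraries. DPT (-0.82) and DCN (-0.75) ran opposite to the cartilage sum. These are descriptions over libraries that share treatment groups, the pattern was noticed in the data, and its cause was not tested.

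Tendon markers marked 1 library each: TNMD was 37.2 CPM in midkine 5 and at most 0.722 CPM elsewhere, and SCX was 75.7 CPM in midkine 1 and at most 4.63 CPM elsewhere.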
